A study of Mus musculus with 12 samples.

Results

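Eosinophils are granulocytes whose granules are packed with toxic cationic proteins, and 5 genes of that lineage were followed here across 4 retroviral constructs in mouse bone marrow. They encode the granule proteins Epx, Prg2 and Prg3 and the surface receptors Il5ra and Ccr3. Each gene was read from the probe set annotated to its symbol alone, the brightest where there were several, and each of the 5 had 1 such probe set. They are 5 of the 19938 genes that could be read in this way.

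The marrow came from adult mice of strain C57/BL6/C3H, injected with 5-fluorouracil 4 days earlier to enrich stem and progenitor cells. The cells were prestimulated for 48 h, laid over irradiated (40 Gy) GFP+E86 cells that produce the retrovirus, kept in cytokines for 48 h more, and sorted for GFP. All of this applied to every group. The first group carried CALM-AF10, a leukaemia fusion gene. The next carried CALM-AF10 ΔOM-LZ, the same fusion without OM-LZ, the octapeptide motif and leucine zipper of AF10 through which AF10 binds the histone methyltransferase DOT1L. The next carried the construct labelled CALM(400-648)+AF10 (677-758), which joins a fragment of each protein and is called the minimal fusion here. The last group, the control, carried the empty vector MIG. RNA was described as taken 96 h after transduction, with 3 biological replicates per construct and 1 Affymetrix array per replicate. The labels do not name the cytokines or the number of mice behind a replicate. In such bulk samples fewer cells of a type and less RNA per cell cannot be told apart.

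Eosinophils arise in the marrow from myeloid progenitors under GATA and C/EBP transcription factors, and IL-5 drives their expansion, maturation and survival. Eosinophil peroxidase (Epx) makes oxidants from halide ions. Prg2 is major basic protein, the core of the crystalline granule, and Prg3 is its homologue. The genes Prg2 and Prg3 both lie on chromosome 2, with 1 other gene start between theirs in the RefSeq gene table. Il5ra is the chain that binds IL-5 and signals with the common beta chain, and Ccr3 is the receptor for the eotaxins, which draw eosinophils into tissue.

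Promoter sequences are shown for 3 of the genes because GATA factors are the best known regulators of this lineage. The windows run from 250 bases before to 50 bases after the gene start in RefSeq, build GRCm38.p6, on the gene's own strand. Of the 5 genes 4 had an entry in that table. Prg2 did not. Capitals mark GATA words (AGATAA or TGATAA or AGATAG or TGATAG, searched on both strands) and the TATA word TATAAA (gene strand).
Epx (chr11:87875487-87875786, minus strand): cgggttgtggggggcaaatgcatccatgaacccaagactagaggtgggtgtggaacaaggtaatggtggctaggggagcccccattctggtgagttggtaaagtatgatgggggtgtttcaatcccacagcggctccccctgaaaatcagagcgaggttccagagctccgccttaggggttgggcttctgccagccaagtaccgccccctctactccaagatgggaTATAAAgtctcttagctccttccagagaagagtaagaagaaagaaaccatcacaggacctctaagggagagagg
Prg3 (chr2:84987965-84988264, plus strand): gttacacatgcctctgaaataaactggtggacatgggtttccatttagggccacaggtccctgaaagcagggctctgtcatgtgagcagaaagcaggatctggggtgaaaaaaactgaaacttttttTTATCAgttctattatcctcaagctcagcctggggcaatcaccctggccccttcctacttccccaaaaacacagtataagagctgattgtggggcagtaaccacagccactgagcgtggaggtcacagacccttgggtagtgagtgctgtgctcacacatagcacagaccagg
Ccr3 (chr9:124021721-124022020, plus strand): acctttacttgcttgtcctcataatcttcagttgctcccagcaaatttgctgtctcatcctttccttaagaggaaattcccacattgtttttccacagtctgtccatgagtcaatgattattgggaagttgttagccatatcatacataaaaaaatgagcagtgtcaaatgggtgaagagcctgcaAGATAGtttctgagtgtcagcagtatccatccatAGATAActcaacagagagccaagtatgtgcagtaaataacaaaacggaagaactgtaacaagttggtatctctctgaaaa

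The Epx window held the TATA word, at −24 to −19 from the start, and none of these GATA words. The Prg3 window held 1 GATA word, read on the minus strand as TTATCA in the line above. The Ccr3 window held 2 GATA words, both on the gene strand, at −64 to −59 and −30 to −25. The Il5ra window, on chromosome 6, held 1, an AGATAA at −74 to −69. A C/EBP word, TTNNGNAA on either strand, was found in the Prg3 and Ccr3 windows and did not overlap the GATA words. Over the 32851 promoter windows of the table, 29.8% held a GATA word, 8.32% the TATA word and 40.7% the C/EBP word. These words are common, so a match is a description of the letters and not of a bound site.

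The arrays as a whole were alike, with correlations between any 2 arrays from 0.970 to 0.995 and array medians from 6.58 to 6.69 on the log2 scale. As a check of the cell type, Mpo, the peroxidase of neutrophil primary granules, lay between 12.10 and 13.38, and the mast cell carboxypeptidase Cpa3 between 12.01 and 13.24. Other mast cell genes were dim in some arrays, such as the chymase gene Mcpt4, which lay between 4.65 and 4.79 in the minimal fusion and between 4.94 and 9.71 in MIG. The 5 eosinophil genes each had a mean over the 12 arrays below the median probe set mean of 6.62. How near they lay to background is unknown, so fold changes in intensity need not equal those in transcript. The array that stood apart for these genes was MIG replicate 3, in which all 5 lay above their own 12-array means, by 0.80 on average. That average came from Epx (1.58), Prg2 (1.48) and Ccr3 (0.83), while Prg3 and Il5ra were only 0.07 and 0.05 above theirs. The differences from MIG that this array moved most are therefore also given without it.

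No eosinophil gene passed the test in any comparison. The limma test with Benjamini-Hochberg adjustment over 23410 probe sets called 0 of the 5 at an adjusted p of 0.05 in the 3 fusions together against MIG, where 0.00427% of all probe sets were called. The count was also 0 of 5 for CALM-AF10 against MIG and for CALM-AF10 ΔOM-LZ against MIG, with a background of 0% in both. It was 0 of 5 for the minimal fusion against MIG, with a background of 0.0342%. Among the fusions it was 0 of 5 as well, against backgrounds of 0% (CALM-AF10 minus CALM-AF10 ΔOM-LZ), 0.0171% (minimal fusion minus CALM-AF10 ΔOM-LZ) and 0.00427% (minimal fusion minus CALM-AF10). The F test of any difference among the 4 constructs called none of the 5 (adjusted p = 0.9999 for each), against 0.00854% of all probe sets. At an unadjusted p under 0.05, 2 of the 5 genes and 1608 probe sets stood out in the fusions together against MIG. Very few genes passed in these comparisons at all, so the counts of 0 say little about these 5 genes in particular, and the values below are given with their intervals.

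**Figure D1:**
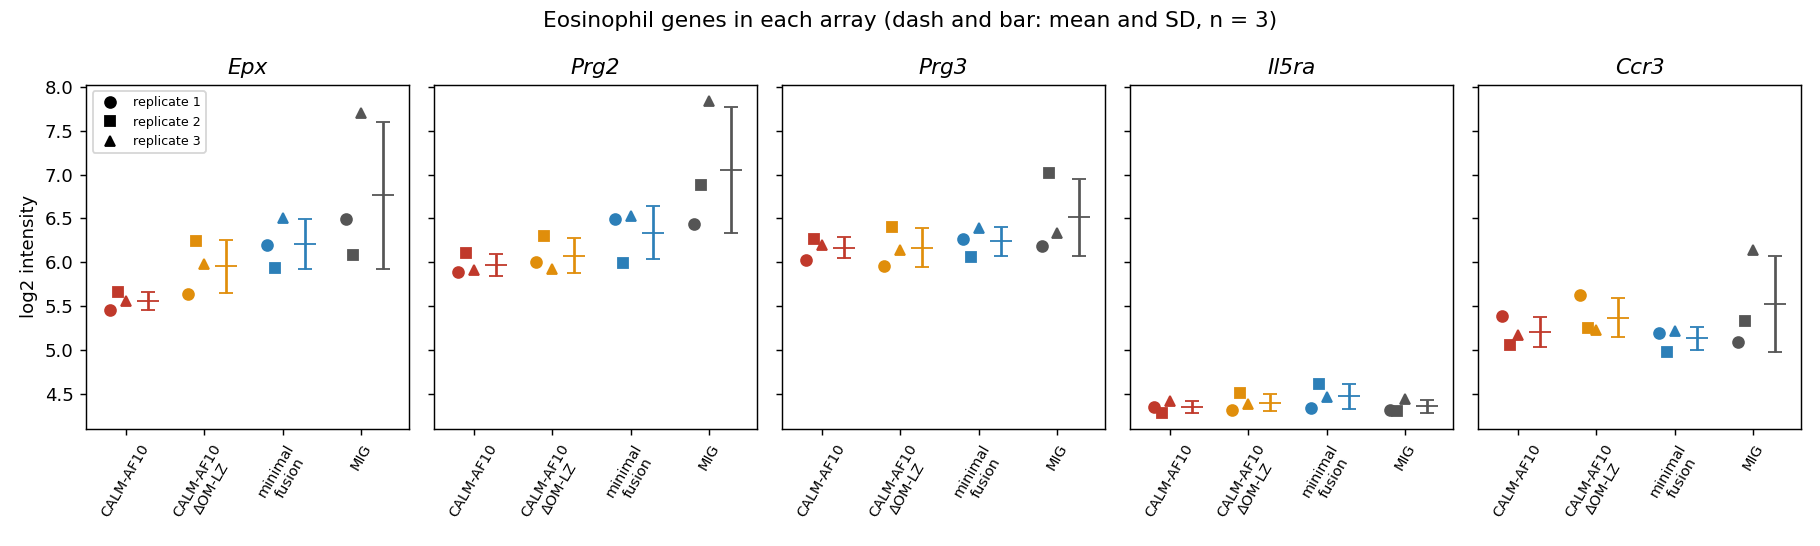
Log2 intensity of the 5 eosinophil genes in each of the 12 arrays, by construct on the horizontal axis, with symbols for the replicate and a dash and bar for the mean and SD of 3 arrays. Epx and Prg2 are lowest in CALM-AF10 and highest in MIG, where replicate 3 lies well above the other 2 arrays.

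Epx, the eosinophil peroxidase (probe set 10389654), had log2 intensities of 5.45, 5.66 and 5.56 in CALM-AF10, 5.64, 6.25 and 5.98 in CALM-AF10 ΔOM-LZ, 6.19, 5.94 and 6.51 in the minimal fusion, and 6.49, 6.09 and 7.70 in MIG. All 3 CALM-AF10 arrays lay below all 3 MIG arrays, and also below all 3 minimal fusion arrays. The means stood in the order CALM-AF10 (5.56 ± 0.10), CALM-AF10 ΔOM-LZ (5.96 ± 0.30), minimal fusion (6.21 ± 0.29) and MIG (6.76 ± 0.84; SD, n = 3 each). No neighbours in that order differed beyond their spread: the 95% interval of each such difference held 0. CALM-AF10 minus MIG was −1.20 on the log2 scale (SE 0.34, 95% interval −1.95 to −0.46), a 2.30-fold lower intensity, with a limma adjusted p of 0.738. Without MIG replicate 3 the same difference was −0.73.

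Prg2, major basic protein (probe set 10473399), had log2 intensities of 5.89, 6.11 and 5.92 in CALM-AF10, 6.004, 6.30 and 5.92 in CALM-AF10 ΔOM-LZ, 6.50, 5.99 and 6.53 in the minimal fusion, and 6.44, 6.89 and 7.84 in MIG. The arrays of CALM-AF10 and of CALM-AF10 ΔOM-LZ all lay below every MIG array, while those of the minimal fusion overlapped with MIG. The order of the means was that of Epx, at 5.97 ± 0.12, 6.07 ± 0.20, 6.34 ± 0.30 and 7.06 ± 0.72 (SD, n = 3 each). CALM-AF10 minus MIG was −1.08 (SE 0.29, 95% interval −1.73 to −0.44, limma adjusted p = 0.698), which is 2.12-fold lower. CALM-AF10 ΔOM-LZ minus MIG was −0.98 (95% interval −1.63 to −0.34), which is 1.97-fold lower. Leaving out MIG replicate 3 took these to −0.69 and −0.59.

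Prg3, the homologue of major basic protein (probe set 10473406), spread less: 6.03, 6.27 and 6.20 in CALM-AF10, 5.96, 6.40 and 6.14 in CALM-AF10 ΔOM-LZ, 6.27, 6.06 and 6.39 in the minimal fusion, and 6.19, 7.01 and 6.34 in MIG. Its single high array was MIG replicate 2, not the array in which Epx and Prg2 were highest. The construct means of 6.16, 6.17, 6.24 and 6.51 kept the same order, with every group overlapping every other. The 3 fusions together minus MIG came to −0.32 (SE 0.16, 95% interval −0.68 to 0.04), and to −0.07 without MIG replicate 2.

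The IL-5 receptor chain Il5ra (probe set 10546762) was dim and flat. Its log2 intensities were 4.35, 4.29 and 4.42 in CALM-AF10, 4.32, 4.51 and 4.39 in CALM-AF10 ΔOM-LZ, 4.34, 4.62 and 4.47 in the minimal fusion, and 4.33, 4.31 and 4.45 in MIG. All 12 arrays lay within 0.33 of each other and all groups overlapped. The 3 fusions together minus MIG came to 0.05 (95% interval −0.12 to 0.23), and to 0.09 without MIG replicate 3. Differences of the size seen for Epx and Prg2 lie outside the interval for this gene's intensity. How near this dim probe set lay to background is unknown, so the interval does not exclude such a difference in the transcript.

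The eotaxin receptor Ccr3 (probe set 10590628) had log2 intensities of 5.39, 5.06 and 5.17 in CALM-AF10, 5.63, 5.26 and 5.23 in CALM-AF10 ΔOM-LZ, 5.20, 4.99 and 5.22 in the minimal fusion, and 5.10, 5.33 and 6.14 in MIG. MIG replicate 3 was the highest array again, and MIG replicate 1 was among the lower ones. The minimal fusion had the lowest mean (5.14 ± 0.13), followed by CALM-AF10 (5.21 ± 0.17), CALM-AF10 ΔOM-LZ (5.37 ± 0.23) and MIG (5.52 ± 0.55; SD, n = 3 each). The 3 fusions together minus MIG were at −0.28 (95% interval −0.70 to 0.13), and without MIG replicate 3 the difference was 0.02. The minimal fusion arrays all lay below the CALM-AF10 ΔOM-LZ arrays, by −0.24 on average (95% interval −0.75 to 0.27).

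Set against the control as a whole, the 3 fusions together had no eosinophil gene past the threshold, and Prg2 and Epx had the lowest estimates of the 5. For Epx the 9 fusion arrays averaged 5.91 and the 3 MIG arrays 6.76, a difference of −0.85 (SE 0.28, 95% interval −1.46 to −0.24, limma adjusted p = 0.544). For Prg2 the averages were 6.13 in the fusions and 7.06 in MIG, a difference of −0.93 (SE 0.24, 95% interval −1.45 to −0.40, limma adjusted p = 0.486). All 9 fusion arrays lay below the MIG mean for Epx, Prg2 and Prg3, and 8 of 9 for Ccr3. Each of these MIG means was raised by a single high array. Below the lowest MIG array lay 6 of 9 fusion arrays for Epx, 7 for Prg2, 4 for Prg3 and 2 for Ccr3. The share of all probe sets with such counts was not computed. Without MIG replicate 3 the differences were −0.38 for Epx, −0.53 for Prg2 and −0.41 for Prg3. The first pair of estimates was thus smaller without that array, and that of Prg3 larger.

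By construct, the minimal fusion stood nearest to MIG for the granule genes. Its differences from MIG were −0.55 for Epx (95% interval −1.29 to 0.20) and −0.72 for Prg2 (95% interval −1.36 to −0.07, limma adjusted p = 0.602), and −0.08 and −0.32 without MIG replicate 3. For CALM-AF10 ΔOM-LZ minus MIG, Epx was at −0.81 (95% interval −1.55 to −0.06), and at −0.34 without that array. Among the fusions, the minimal fusion minus CALM-AF10 was 0.65 for Epx (95% interval −0.09 to 1.40, limma adjusted p = 0.9999) and 0.37 for Prg2 (95% interval −0.28 to 1.01). CALM-AF10 minus CALM-AF10 ΔOM-LZ was −0.40 for Epx (95% interval −1.14 to 0.35), and its interval held 0. That interval leaves out that same-numbered arrays of these constructs deviated together in their values. For Epx each CALM-AF10 array lay below the same-numbered CALM-AF10 ΔOM-LZ array. With a replicate block in a fit of these arrays alone, the limma adjusted p was 0.248. The contrasts with MIG share their 3 control arrays and are not independent of each other.

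**Figure D2:**
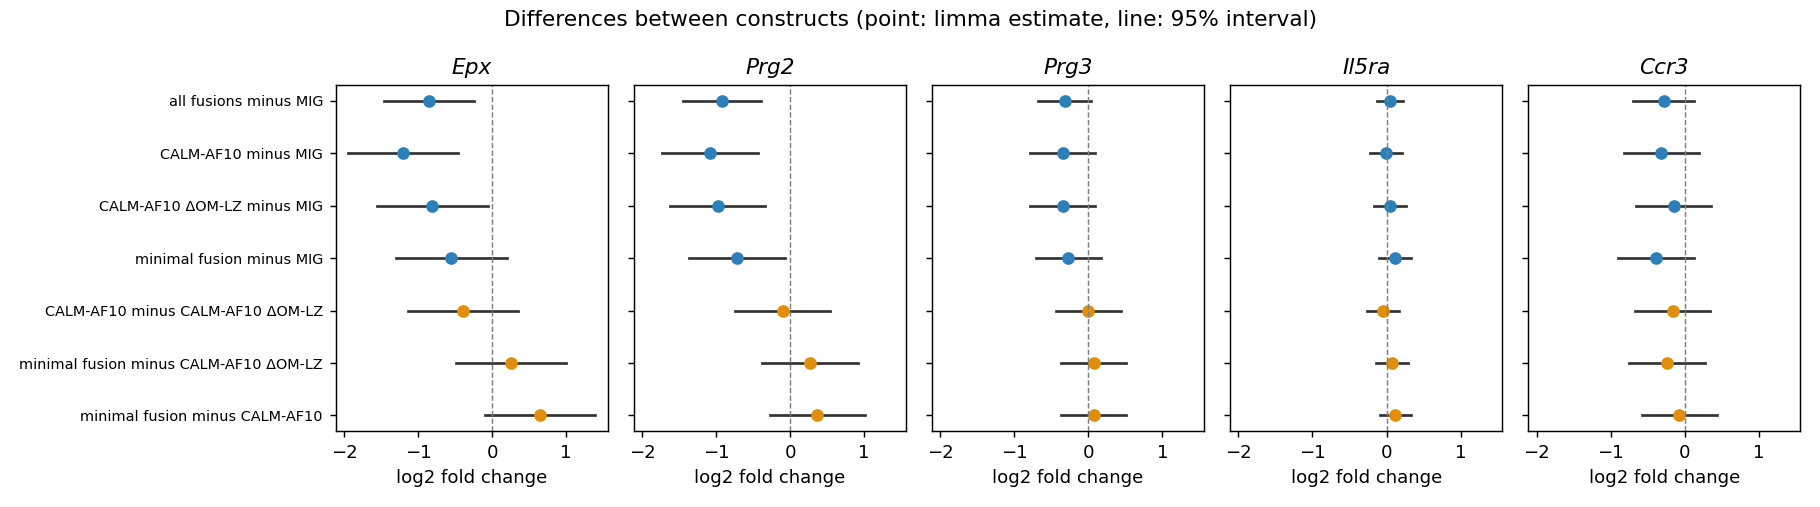
Log2 fold change (point) and 95% interval (line) of each eosinophil gene in 7 comparisons, listed down the page. Intervals for Epx and Prg2 against MIG lie mostly below 0, those for Il5ra are narrow and hold 0, and none passed the adjusted threshold.

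Counted by arrays that do not overlap, 2 of the 5 genes (Epx and Prg2) were lower in CALM-AF10 than in MIG, against 3.26% of all probe sets. For CALM-AF10 ΔOM-LZ below MIG the count was 1 of 5 (Prg2), against 4.47%. For the minimal fusion below MIG it was 0 of 5, against 6%, and for all 9 fusion arrays below the 3 MIG arrays 0 of 5, against 0.594%. Between fusions, Ccr3 was the 1 gene of 5 lower in the minimal fusion than in CALM-AF10 ΔOM-LZ (background 4.09%), and Epx the 1 of 5 higher in the minimal fusion than in CALM-AF10 (background 2.06%). The median log2 fold change of the 5 genes was −0.35 for CALM-AF10, −0.34 for CALM-AF10 ΔOM-LZ and −0.39 for the minimal fusion, each minus MIG. Over the 19938 genes, each read from its brightest probe set, the median was 0.01 in each. Without MIG replicate 3 the medians of the 5 genes were −0.43 for CALM-AF10, −0.34 for CALM-AF10 ΔOM-LZ and −0.08 for the minimal fusion. The larger median for CALM-AF10 is the value of Prg3, whose own high array, MIG replicate 2, then weighed more. In that comparison Epx went from −1.20 to −0.73, Prg2 from −1.08 to −0.69 and Ccr3 from −0.31 to −0.0061. Il5ra went from −0.0069 to 0.036.

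Epx and Prg2 varied together over the 12 arrays, with Pearson r = 0.91 and Spearman rho = 0.85 (permutation tests adjusted over 10 pairs of genes, p = 0.0082 and 0.0094). The deviations from construct means gave r = 0.83, and the 9 fusion arrays alone r = 0.84. Leaving out the 2 arrays farthest from the median of Epx, CALM-AF10 replicate 1 and MIG replicate 3, took r to 0.66 (permutation adjusted p = 0.197), so the relation past the threshold rests on those arrays. Without MIG replicate 3 alone r was 0.71 (permutation adjusted p = 0.0794). Prg2 and Prg3, the neighbouring pair, had rho = 0.75 and r = 0.53 (permutation adjusted p = 0.0346 and 0.222), and r = 0.84 without MIG replicate 3 (permutation adjusted p = 0.0143). Their deviations from construct means gave r = 0.19. Without the 2 arrays farthest from the median of Prg2, MIG replicates 2 and 3, it was 0.70. Ccr3 had r = 0.69 with Prg2 and 0.60 with Epx, which became −0.04 and −0.30 without MIG replicate 3. For deviations from construct means, with that array in, Ccr3 and Prg2 had r = 0.78 (permutation adjusted p = 0.0214). This permutation shuffled all 12 deviations freely, though those within a construct depend on each other, so its p may be too small. The other 6 pairs, which include every pair with Il5ra, had r from −0.15 to 0.29. The highest of these, Epx with Prg3, had rho = 0.64 (permutation adjusted p = 0.094) and r = 0.72 in the 9 fusion arrays. Its deviations from construct means gave r = −0.16. Prg2 with Prg3 had r = 0.76 in the 9 fusion arrays.

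**Figure D3:**
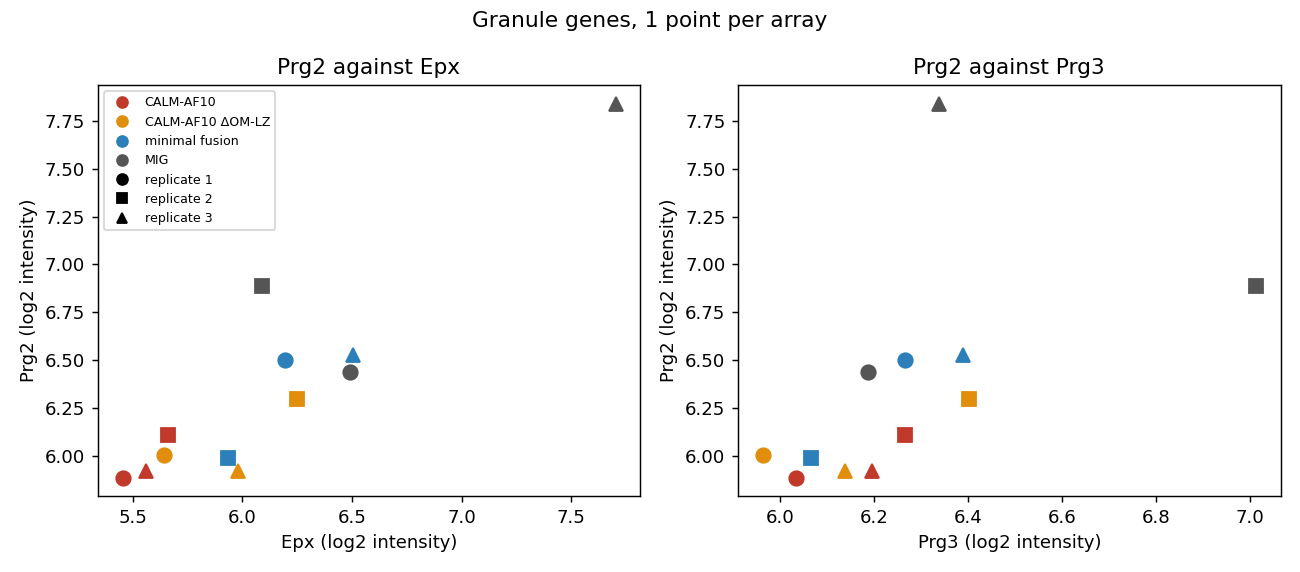
Prg2 against Epx (left) and against Prg3 (right) in log2 intensity, 1 point per array, with colour for the construct and symbol for the replicate. MIG replicate 3 lies at the top right of the left plot and stands above the other arrays in the right plot, where MIG replicate 2 has the highest Prg3.

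Markers of other cell types were read in the same arrays, as list scores. Each gene's log2 value was set to its deviation from its 12-array average, and the score of a list in an array is the mean of these deviations. The mast cell list (9 of 9 measured) had its highest score in MIG replicate 3, at 2.28, with −0.47 and 0.07 in the other MIG arrays. The next highest scores were 1.41 in CALM-AF10 ΔOM-LZ replicate 1 and 1.29 in CALM-AF10 replicate 1, and these arrays had low Epx (5.64 and 5.45). Scores in the remaining fusion arrays ran from −1.24 to −0.28. Cma1, a mast cell chymase, was at 10.23 in MIG replicate 3, at 8.47 in CALM-AF10 replicate 1 and at 8.19 in CALM-AF10 ΔOM-LZ replicate 1. A high mast cell score thus went with high Epx and Prg2 in MIG replicate 3 and not in the other high-scoring arrays. Ccr3 differed, with its highest values in the same arrays: 6.14 in MIG replicate 3, 5.63 in CALM-AF10 ΔOM-LZ replicate 1 and 5.39 in CALM-AF10 replicate 1. Prg3 (5.96 and 6.03) and Il5ra (4.32 and 4.35) were below their 12-array means in CALM-AF10 ΔOM-LZ replicate 1 and CALM-AF10 replicate 1. The basophil list (3 of 3 measured) ran from −0.89 to 0.27 in CALM-AF10, 0.22 to 1.60 in CALM-AF10 ΔOM-LZ, −0.93 to 0.18 in the minimal fusion and −0.46 to 1.04 in MIG. The megakaryocyte list (5 of 6 measured) ran from −0.79 to 0.16 in CALM-AF10, −0.50 to 1.16 in CALM-AF10 ΔOM-LZ, −1.04 to −0.40 in the minimal fusion and −0.14 to 1.34 in MIG. Its part, and that of mast cells and basophils, in the Epx, Prg2 and Ccr3 values was not tested. No defining marker could be read as 0 on these arrays, since the values have no zero.

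**Figure D4:**
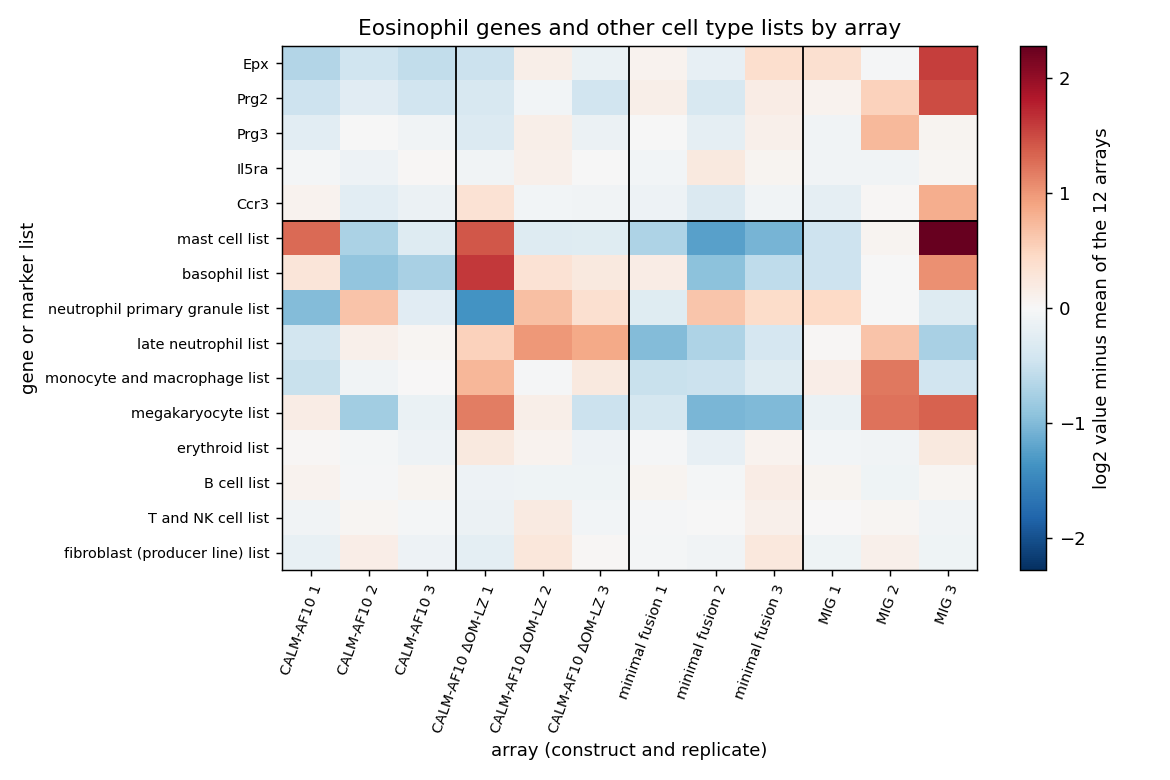
Deviation of the log2 value from the 12-array average for each eosinophil gene (top 5 bands) and for the score of each marker list (below), with 1 column per array ordered by construct. MIG replicate 3 is high for Epx, Prg2, Ccr3 and the mast cell list at once. CALM-AF10 replicate 1 and CALM-AF10 ΔOM-LZ replicate 1 are high for mast cells, low for Epx and above average for Ccr3.

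Around the receptors, the IL-5, IL-3 and GM-CSF list had 10 of 10 genes measured and 0 past the limma threshold in either direction in any of the 7 comparisons. In the 3 fusions together minus MIG, 4 stood higher and 6 lower, with a median log2 fold change of −0.03 (−0.0073 without MIG replicate 3). The kinase Jak2, which carries the signal of these receptors, had means of 9.80 in CALM-AF10, 10.03 in CALM-AF10 ΔOM-LZ, 9.60 in the minimal fusion and 10.31 in MIG, a difference of −0.50 for the fusions together (SE 0.20, adjusted p = 0.664). Csf2rb2, the mouse beta chain that serves IL-3, came next at −0.39, and without MIG replicate 3 it stood at −0.11 and Jak2 at −0.35, while the cytokines Il3 and Csf2 stood at 0.14 and 0.05. Outside the naming rule and chosen after its values were seen, the common beta chain Csf2rb that partners Il5ra was bright, with means of 11.95, 12.18 and 11.65 in the fusions in the same order and 12.07 in MIG. Il5 itself had means from 4.27 to 4.41.

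Transcription factors of the lineage (12 of 12 measured) had 0 past the threshold in any comparison, 4 higher and 8 lower in the fusions together minus MIG, and a median of −0.13, which was 0.0023 without MIG replicate 3. Id2, an inhibitor of basic helix-loop-helix factors, had the lowest difference relative to its error, −0.82 (SE 0.45), and its relative Id1 followed at −0.18. Without MIG replicate 3 these were −0.33 and −0.29. Cebpa and Spi1, which encode the myeloid regulators C/EBPα and PU.1, had the highest moderated statistics, with differences of 0.10 and 0.16 (0.05 and 0.0041 without that array), though the difference of Trib1, with a larger error, was 0.25. Of the other eosinophil genes 8 of 14 were measured, 0 passed, and 2 stood higher and 6 lower with a median of −0.04. Adgre1, a surface antigen of mouse macrophages and eosinophils, averaged 9.13 in CALM-AF10, 9.98 in CALM-AF10 ΔOM-LZ, 8.59 in the minimal fusion and 10.28 in MIG, a difference of −1.05 for the fusions together (SE 0.39, adjusted p = 0.618), and −0.89 without MIG replicate 3. The eosinophil ribonuclease Ear6 stood at −0.18, and Ptgdr2, a prostaglandin D2 receptor, and Cd244a at 0.01 and 0.00 (−0.29, −0.06 and 0.09 without that array). Siglecf, the mouse eosinophil surface lectin in the marker list, stood at −0.05 (adjusted p = 0.983), and at −0.16 without it. Ear1, Ear2, Ear3, Ear10, Ear12 and Il1rl1 were not analysed here. Among the chemokines that bind Ccr3 (5 of 5 measured), 0 passed, 1 stood higher and 4 lower with a median of −0.12, which was −0.0060 without MIG replicate 3. Ccl7 and Ccl5 were lowest at −0.76 and −0.29, but these rested on that array and were 0.10 and 0.04 without it. Ccl24 (−0.07) and Ccl8 (0.11) were highest, at −0.26 and −0.0060 without it.

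**Figure D5:**
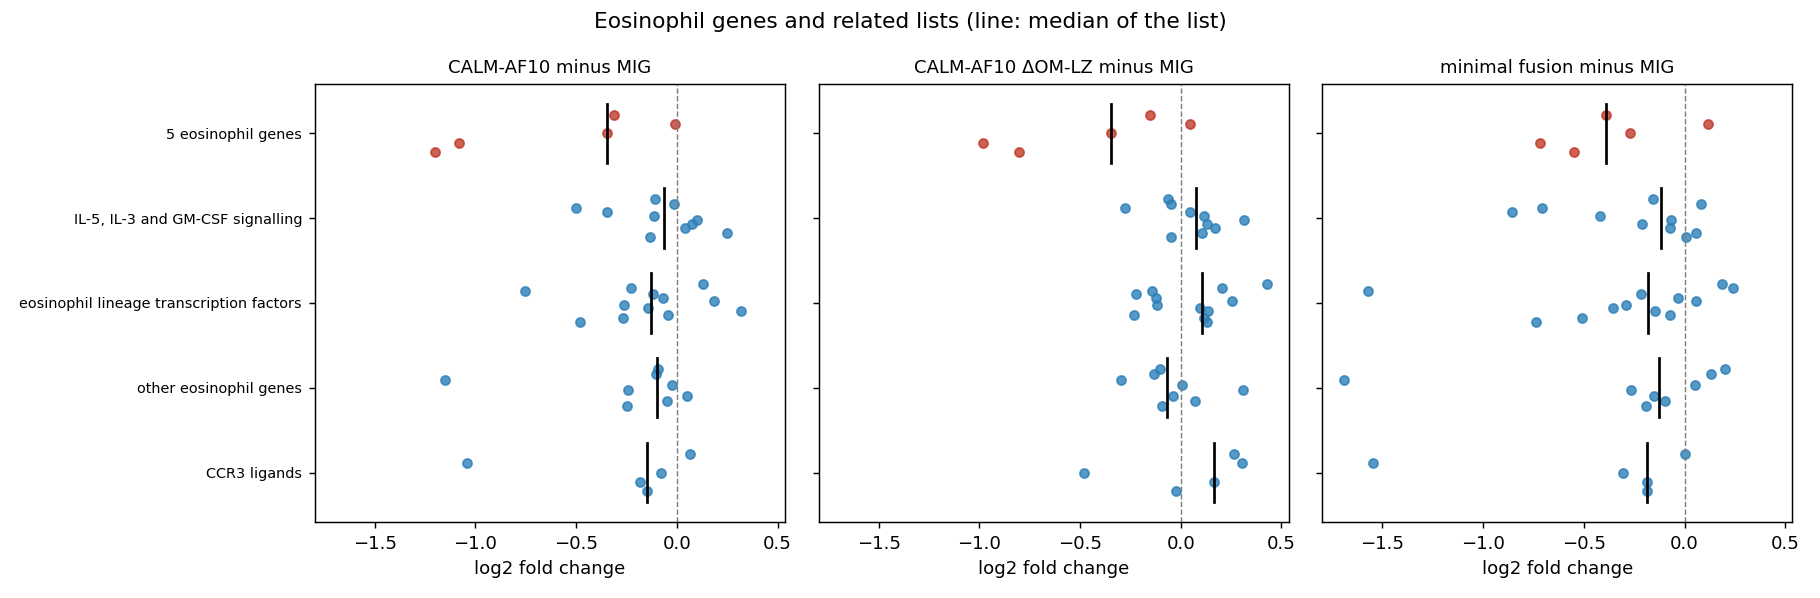
Log2 fold change of each gene (point) against MIG for CALM-AF10, CALM-AF10 ΔOM-LZ and the minimal fusion, for the 5 eosinophil genes and 4 related lists, with a line at each list's median. The eosinophil genes have medians of −0.35, −0.34 and −0.39 across the panels, and none of the genes plotted passed the adjusted threshold. Without MIG replicate 3, which is included here, the median for the minimal fusion was −0.08.

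Genes whose values over the 12 arrays were most like the mean of the 5 eosinophil genes were, in order, Lrrc32 (r = 0.94), Nmnat2 (0.91), Cntd1 (0.91), 1810010H24Rik (0.91), Kifc3 (0.90), Mlph (0.89), Aqp8 (0.89), Gucy1b1 (0.89), Calml4 (0.88) and Runx1t1 (0.88). All 10 were highest in MIG replicate 3, and without that array their r ran from 0.49 to 0.85. Among all genes the highest 1% reached at least 0.72. Epx was most like Adm (0.92), Ndc80 (0.91) and Prg2 itself (0.91). Prg2 was most like Lrrc32 (0.95), Calml4 (0.92) and 1810010H24Rik (0.92). Prg3 was most like Rfpl4 (0.95), Insyn2b (0.94) and Cyp2b23 (0.93), all highest in MIG replicate 2. For Il5ra they were Nutm1 (0.82), Dnajb6 (0.80) and Six4 (0.80), and for Ccr3 Parm1 (0.97), Rsph9 (0.97) and Cyp4a12b (0.97). These are descriptions over 12 arrays, chosen from all measured genes, and no p goes with them.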

How the data were processed

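Bulk RNA of 12 samples was hybridized to Affymetrix whole-transcript arrays. The deposited values, 1 log2 intensity per probe set and array, came from Affymetrix Expression Console according to the submitters' processing notes. Its version, summarization and normalization: not given in the sources used here. Values between 2.883 and 14.272 identify the log2 scale, and nothing was renormalized. Of 35556 probe sets, 23410 had a gene symbol in the platform annotation and were tested. Of these, 21789 had 1 symbol, 1621 had several and named no gene, and the other 12146 of the file had none.

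A linear model with 1 mean per construct (8 residual degrees of freedom) was fitted with lmFit and eBayes of limma 3.58.1 under R 4.3.3. Two-sided p values received Benjamini-Hochberg adjustment across the 23410 probe sets, with 0.05 as threshold. Correlations between members were tested with 100000 permutations (scipy 1.17.1). These treated the arrays as exchangeable across constructs. They left out the constructs and the pairing of arrays described below, so their p values may be too small. The scripts were tested on simulated data. The number of arrays, 3 per construct, limits the precision. The labels call replicates biological without naming separate mice, so p values measure the spread between these samples, which may be partly technical.

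Same-numbered arrays of CALM-AF10 and CALM-AF10 ΔOM-LZ deviated together (r = 0.70 to 0.73 for the 3 pairs). For no other pair of constructs did all 3 exceed 0.1. The labels do not state this pairing; it comes from the values.

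The members and the lists were chosen with earlier results of these data known. Beside the members, the text names the 10 genes most like their mean, the 3 most like each, and from each of the 4 related lists the 2 highest and 2 lowest moderated statistics in the fusions together minus MIG. Mpo, Cpa3, Cma1, Mcpt4, Trib1 and Csf2rb fall outside this rule and were chosen after their values were seen. Il5 and Siglecf also fall outside it. Differences of list genes without MIG replicate 3 are differences of means, added after seeing the data. Alternatives were trend and robust variance, fits of 2 groups alone, quantile normalization, median centring, a replicate block, the mean of a gene's probe sets, dim probe sets left out, all probe sets of the file, and each array left out.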

Additional observations from a re-analysis of the deposited data

How the results depend on the processing

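None of the 5 eosinophil genes passed the adjusted threshold in any of 133 recomputed comparisons, and the lowest adjusted p was 0.232 (Prg2, the 3 fusions together minus MIG). Of 665 recomputed log2 fold changes 15 changed sign, but many of the 665 could not change. A difference of means is not moved by another variance model, a fit of 2 groups, a replicate block or the set of probe sets tested. Leaving out an array of a construct outside the comparison does not move it either. The share that changed sign is therefore no measure of stability. With median centring Il5ra in CALM-AF10 minus MIG was 0.00366, and with quantile normalization Prg3 in CALM-AF10 minus CALM-AF10 ΔOM-LZ was 0.026. Leaving out single arrays gave, for Ccr3, −0.50 to 0.024 in the fusions together minus MIG, −0.36 to 0.16 in CALM-AF10 ΔOM-LZ minus MIG, and −0.15 to 0.018 in the minimal fusion minus CALM-AF10. For Il5ra it gave −0.042 to 0.036 in CALM-AF10 minus MIG, −0.0062 to 0.089 in CALM-AF10 ΔOM-LZ minus MIG, and −0.0025 to 0.14 in the minimal fusion minus CALM-AF10 ΔOM-LZ. In CALM-AF10 minus CALM-AF10 ΔOM-LZ it gave −0.18 to 0.0098 for Prg2 and −0.10 to 0.11 for Prg3, and in the minimal fusion minus CALM-AF10 ΔOM-LZ −0.029 to 0.19 for Prg3.

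Correlations that changed sign were all under 0.7 in the reported setting. Leaving out single arrays gave r from −0.26 to 0.19 for Prg3 with Il5ra, −0.30 to 0.74 for Epx with Ccr3, −0.21 to 0.23 for Prg2 with Il5ra, −0.036 to 0.81 for Prg2 with Ccr3, −0.036 to 0.18 for Prg3 with Ccr3 and −0.38 to 0.24 for Il5ra with Ccr3. Leaving out the 2 farthest arrays gave −0.19 for Epx with Ccr3, −0.042 for Prg2 with Il5ra, −0.22 for Prg2 with Ccr3, 0.049 for Prg3 with Il5ra and 0.36 for Il5ra with Ccr3. Deviations from construct means gave −0.16 for Epx with Prg3, −0.21 for Prg3 with Ccr3 and 0.10 for Il5ra with Ccr3. Quantile normalization gave −0.0023 for Prg3 with Ccr3 and 0.014 for Il5ra with Ccr3, and median centring −0.074 for Prg3 with Ccr3 and −0.083 for Prg2 with Il5ra. Past the threshold in 1 setting and not in the reported one were Prg2 with Ccr3 for deviations from construct means (r = 0.78) and Prg2 with Prg3 without MIG replicate 3 (r = 0.84). The cause was not tested.

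The replicate block called 0 of the 5 genes in each of the 7 comparisons. Epx in CALM-AF10 minus CALM-AF10 ΔOM-LZ was −0.40 as before, since a block cannot move a difference of means in this balanced design. A block in a fit of those 6 arrays alone, added after seeing the data, gave it an adjusted p of 0.248. Over all probe sets, the count called moved from 1 to between 0 and 9 in the fusions together minus MIG, from 8 to between 0 and 20 in the minimal fusion minus MIG, from 4 to between 0 and 17 in the minimal fusion minus CALM-AF10 ΔOM-LZ and from 1 to between 0 and 3 in the minimal fusion minus CALM-AF10. For CALM-AF10 minus MIG, CALM-AF10 ΔOM-LZ minus MIG and CALM-AF10 minus CALM-AF10 ΔOM-LZ, the counts of 0 became at most 1, 4 and 1. Leaving out dim probe sets gave no value, since all 5 genes had means below that limit of 6.62. The mean of a gene's probe sets was the same value, as each gene had 1. Signal over background is not given in the file, so how near the 5 genes lay to background is unknown. Il5ra was the dimmest of them.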

Other observations

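Of the lists of other cell types, those of lymphoid, erythroid and fibroblast cells varied little over the arrays. The B cell list score ran from −0.02 to 0.08 in CALM-AF10, −0.12 to −0.09 in CALM-AF10 ΔOM-LZ, −0.04 to 0.16 in the minimal fusion and −0.10 to 0.06 in MIG. The T and NK cell list ran from −0.08 to 0.05 in CALM-AF10, −0.13 to 0.20 in CALM-AF10 ΔOM-LZ, −0.02 to 0.12 in the minimal fusion and −0.08 to 0.05 in MIG. The erythroid list ran from −0.11 to 0.03 in CALM-AF10, −0.11 to 0.22 in CALM-AF10 ΔOM-LZ, −0.19 to 0.07 in the minimal fusion and −0.07 to 0.22 in MIG. The fibroblast list, for the virus producer line, ran from −0.17 to 0.15 in CALM-AF10, −0.22 to 0.25 in CALM-AF10 ΔOM-LZ, −0.07 to 0.25 in the minimal fusion and −0.09 to 0.12 in MIG.

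Neutrophil and monocyte lists spread more. The neutrophil primary granule list ran from −0.99 to 0.65 in CALM-AF10, −1.36 to 0.68 in CALM-AF10 ΔOM-LZ, −0.28 to 0.63 in the minimal fusion and −0.30 to 0.46 in MIG. The late neutrophil list ran from −0.42 to 0.12 in CALM-AF10, 0.52 to 0.99 in CALM-AF10 ΔOM-LZ, −0.99 to −0.37 in the minimal fusion and −0.74 to 0.64 in MIG. The monocyte and macrophage list ran from −0.51 to 0.0022 in CALM-AF10, −0.03 to 0.76 in CALM-AF10 ΔOM-LZ, −0.50 to −0.29 in the minimal fusion and −0.44 to 1.19 in MIG. No gene of any marker list passed the adjusted limma threshold in any of the 7 comparisons.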
